A study of Homo sapiens with 8 samples.

Results

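SKG-I is an established cervical cancer cell line, and the arrays described here compared SKG-I cells in which the mRNA of IGF2R was knocked down by an siRNA (siIGF2R) with SKG-I cells that received a control siRNA (siCtrl). The 4 SKG-I arrays, 2 for siCtrl and 2 for siIGF2R, were taken by their cell line label from 8 arrays in all, and the other 4 came from BOKU, a second cervical cancer line treated the same way. Cells of both groups were lipofected with 10 nM siRNA and harvested after 72 h. The paper's legend gives the 2 arrays of a group as duplicates of the same total RNA, while the series' design text speaks of sets of each condition and does not say whether they were separate cultures. They are treated here as duplicate arrays of 1 RNA sample per group, whose spread is technical, and so no test of the knockdown is given. The study used more than one siRNA against IGF2R, and which of them went on the arrays is not named in the sources used here. A transcript that rises in every cell and a transcript that rises because more of the cells carry it cannot be told apart in such bulk RNA.

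IGF2R encodes the cation-independent mannose 6-phosphate receptor. In the trans-Golgi network it binds newly made lysosomal enzymes that carry a mannose 6-phosphate tag and hands them to clathrin-coated carriers bound for endosomes, and at the cell surface it takes up IGF-2 for degradation. Cathepsins, the proteases of the lysosome, are among its cargo. The question put to these arrays was which genes and pathways changed in SKG-I cells when the receptor was depleted.

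The deposited signal of a probe set is a background-corrected brightness in arbitrary units on a linear scale, scaled so that the trimmed mean was 500.1 on all 4 arrays. A probe set was taken as measured if its signal reached 500 on any of these arrays, which left 14550 probe sets, 26.6% of the table, and 8078 genes. The duplicates were close to each other. Over these probe sets the log2 signals of the siCtrl arrays had a correlation of 0.9917 and 23 probe sets (0.158%) lay 2-fold apart, and those of the siIGF2R arrays had a correlation of 0.9933 and 10 such probe sets (0.0687%). Between a siCtrl and a siIGF2R array the correlation was 0.8659 to 0.8685, and 2043 to 2119 probe sets lay 2-fold apart, up to 14.6%. The ratio of 3′ to 5′ signal of the ACTB controls, a sign of RNA integrity, was 1.2 and 1.3 on the siCtrl arrays and 1.18 and 1.16 on the siIGF2R arrays.

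Markers of epithelium were present, though CDH1 was dim with siCtrl. The keratins of simple epithelium were bright on all 4 arrays, KRT8 at 13950 and 13090 (siCtrl) and 11560 and 10520 (siIGF2R), and KRT18 at 14660, 15720, 13480 and 13720 in the same order. EPCAM, an adhesion molecule of epithelia, stood at 1536, 1518, 1247 and 1450. The other members of this marker list were called changed. KRT19 stood at 7024, 7222, 1968 and 1939, and CDH1, E-cadherin, at 143.4, 173.3, 619.1 and 652.2. Of 15 markers of squamous epithelium, leukocytes and endothelium, 12 had a named probe set, and none of these exceeded 215 on any array. Among 6 fibroblast markers COL1A1 and COL3A1 were measured. COL1A1 stood at 5574, 5684, 4378 and 4304, while DCN, LUM and PDGFRB did not exceed 151.

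A gene was called changed when the means of its duplicates, taken on the log2 scale, differed at least 2-fold and both siIGF2R arrays lay on the same side of both siCtrl arrays. By this rule 580 genes rose, 7.18% of the 8078 measured, and 506 fell, 6.26%, together 1086 genes or 13.4%. A subset of 455 of the rises and 386 of the falls differed at least 2-fold in each of the 4 pairs of a siIGF2R and a siCtrl array. At least 8-fold changes were seen in 32 genes that rose and 15 that fell. The median log2 difference over all genes was −0.05. The filter keeps a dim gene that brightened in either group, and 235 of the genes that rose were under 500 on both siCtrl arrays. Among the 7381 genes with a mean siCtrl signal of 500 or more, 332 rose (4.5%) and 492 fell (6.67%). The numbers of called genes in each list below are to be read beside these shares. Genes named below that were not among the largest changes, the most changed members of a list or its main factor were chosen after their values were seen. At the edge of the rule, SMIM13 was called with a log2 difference of 1.0 where G3BP2 at 0.999 was not, and G6PC3 was called at −1.002 where FA2H at −0.999 was not.

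**Figure D1:**
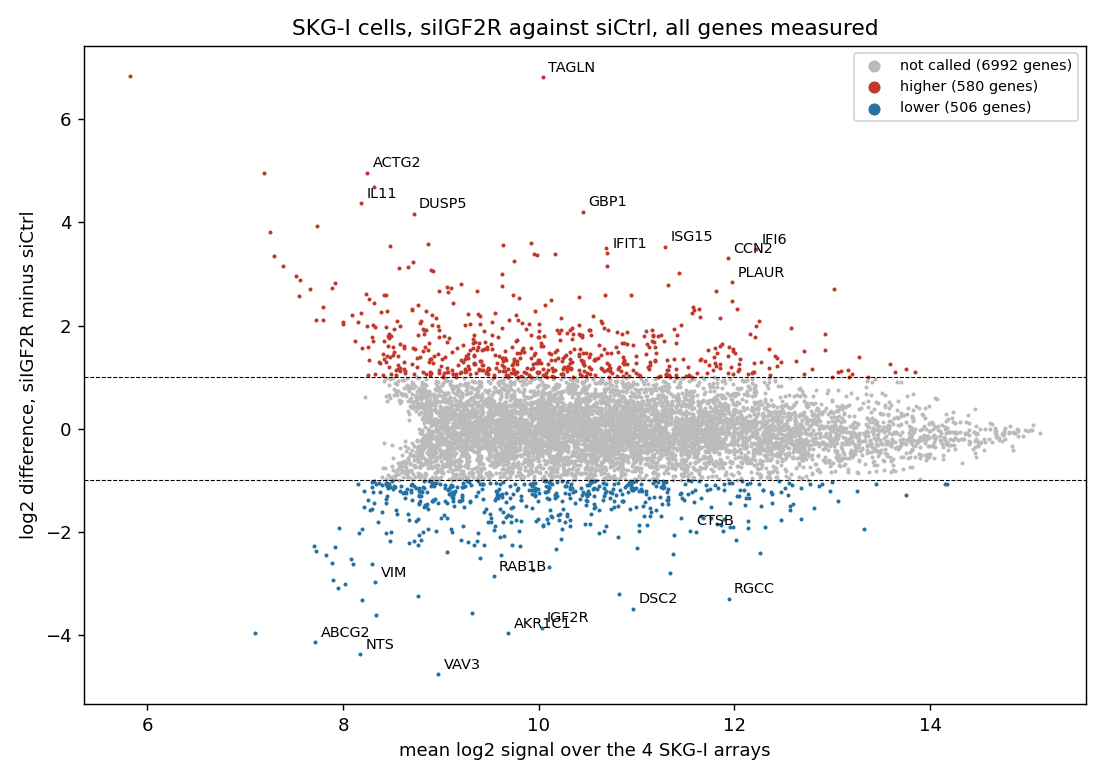
Log2 difference between siIGF2R and siCtrl (y axis) against the mean log2 signal of the 4 SKG-I arrays (x axis) for the 8078 genes measured, 1 point a gene. The 580 genes called higher are red, the 506 called lower are blue and the dashed lines mark a 2-fold difference. The unlabelled point at the upper left is MYL7, whose siCtrl signals were 5.06 and 5.48 and which was picked out after its values were seen.

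The siRNA target fell. IGF2R signals were 4120 and 3838 on the siCtrl arrays and 256.6 and 294.9 on the siIGF2R arrays. The groups did not overlap, the siIGF2R mean was 14.5-fold lower (log2 difference −3.85, with a pooled SD of duplicates of 0.11), and both IGF2R probe sets fell.

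Other genes of mannose 6-phosphate sorting were called on both sides. Of 16 measured of the 18 listed, GNPTAB was the only one that rose, and AP1M2 fell besides IGF2R itself, with a list median of 0.02. GNPTAB, which encodes the catalytic subunits of the enzyme that starts the mannose 6-phosphate tag, went from 2452 and 2462 to 5459 and 5684, 2.27-fold. AP1M2, the medium subunit of the epithelial AP-1B adaptor, went from 798.7 and 662.2 to 254.1 and 274.1, 2.76-fold lower. M6PR, the smaller cation-dependent receptor for the same tag, had a log2 difference of −0.43 and was not called.

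Among the lysosomal proteases 1 of 8 measured fell and none rose. CTSB, cathepsin B, had signals of 5889 and 6001 with siCtrl and of 1440 and 1592 with siIGF2R. The groups were far apart, 3.93-fold, and all 5 measured probe sets of CTSB fell. In BOKU CTSB was called lower too (log2 difference −1.09). By quantitative RT-PCR at 72 h, the study itself reported little effect of the knockdown on cathepsin mRNA. It reported less cathepsin B and L protein, and from both it proposed a failure of their transport after transcription. The array values come from 1 RNA sample per group, and the difference between the arrays and the RT-PCR was not tested. CTSD, cathepsin D, had a log2 difference of −0.69 and was not called. Of 22 other lysosomal hydrolases only SMPD1, acid sphingomyelinase, was called, lower by 1.11 on the log2 scale, and without siCtrl array 1, at 1832 against 1122 on siCtrl array 2, its log2 difference was −0.75 and the call was lost. Of 24 lysosomal membrane and V-ATPase genes MCOLN1, a calcium channel of the lysosome (log2 difference −1.34), and TMEM192 (−1.003) fell, though TMEM192 was at −0.83 without siCtrl array 2 and at −0.96 without siIGF2R array 1 and so was not called there. LAMP1, a main glycoprotein of the lysosomal membrane, differed by −0.03. The autophagy list had 1 gene called among 28, ATG4C, with a log2 difference of −1.07. Over these lists the medians were −0.41, −0.19, −0.20 and −0.19. The shares called lower were 12.5%, 4.55%, 8.33% and 3.57%, beside 6.26% of all genes. In the mitophagy list 4 of 15 (26.7%) fell and none rose. These were BNIP3L (log2 difference −1.38), a receptor of the outer mitochondrial membrane, BCL2L13 (−1.07), PINK1 (−1.04), the kinase that marks damaged mitochondria, and VDAC1 (−1.02), a channel of the outer membrane. The calls of PINK1 and VDAC1 depended on the processing, with PINK1 at −0.89 without siIGF2R array 1 and VDAC1 at −0.94 after quantile normalization. BCL2L13 was called in 2 of 3 probe sets and was at −0.96 as the mean of its probe sets.

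**Figure D2:**
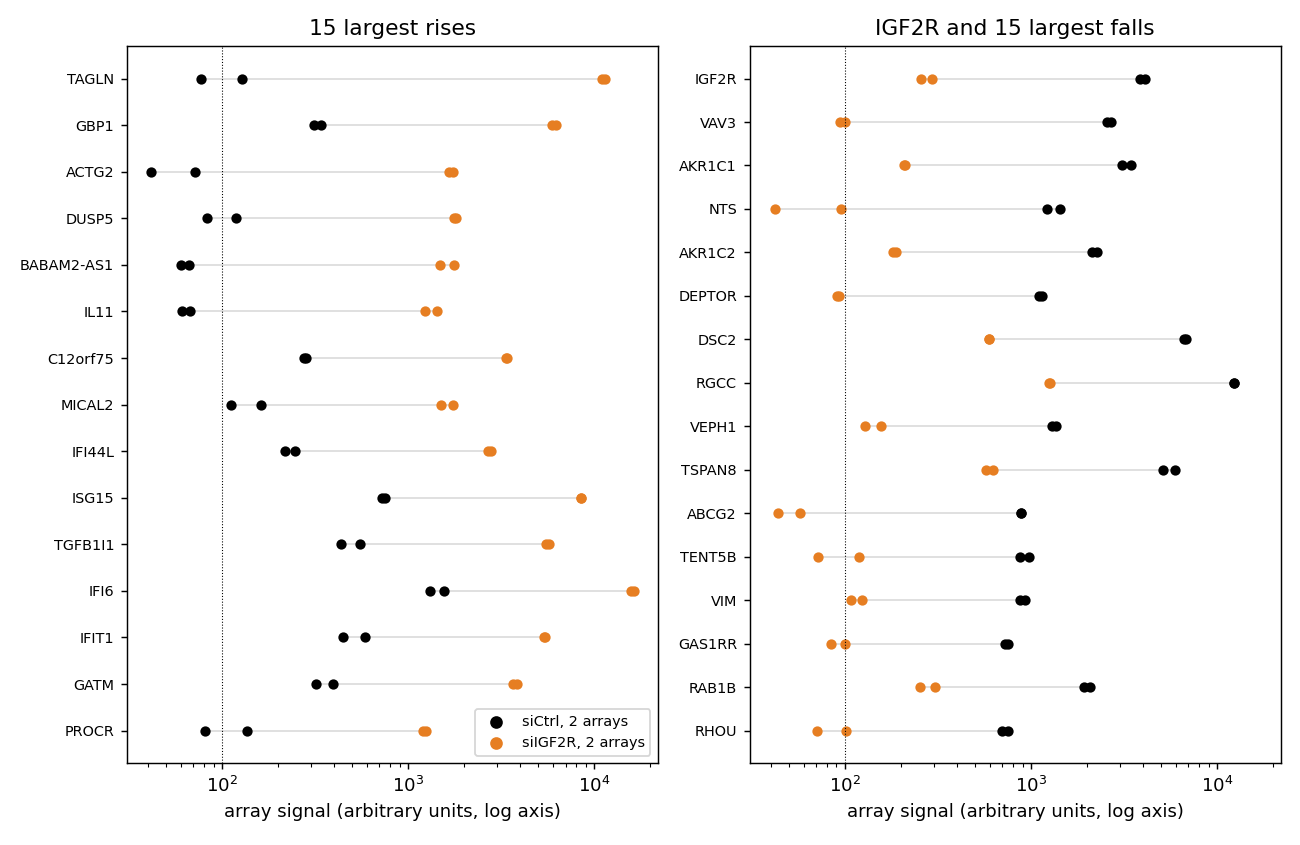
Signals of each SKG-I array (x axis, arbitrary units, log scale) for the 15 largest rises, and for IGF2R and the 15 largest falls, with siCtrl arrays in black and siIGF2R arrays in orange. The duplicates sit close together and apart from the other group, and the dotted line marks the floor of 100, under which signals were not ranked.

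TAGLN had the largest rise. It encodes transgelin, a protein that binds actin filaments and marks smooth muscle, and its signals went from 76.53 and 128.2 to 11440 and 10930. With a siCtrl mean under 100, the floor below which signals were not ranked, only a bound is given, an at least 98.7-fold rise of TAGLN. ACTG2, enteric smooth muscle actin, went from 71.28 and 41.47 to 1659 and 1745, at least 17.0-fold. GBP1, a guanylate binding protein induced by interferons, went from 313.5 and 338.8 to 6191 and 5889, 18.5-fold, in 3 of 3 probe sets. DUSP5, a nuclear phosphatase that inactivates ERK, rose at least 16.5-fold and IL11, a cytokine of the IL-6 family, at least 13.2-fold. The rest of the 15 were BABAM2-AS1 (at least 16.2-fold), C12orf75 (12.1-fold), MICAL2 (a log2 difference of 3.58), an oxidase that disassembles actin filaments, IFI44L (11.9-fold), ISG15 (11.5-fold), TGFB1I1 (11.4-fold), an adaptor of focal adhesions, IFI6 (11.2-fold), IFIT1 (10.6-fold), GATM (10.5-fold), which makes a precursor of creatine, and PROCR (11.7-fold), the receptor of protein C. PROCR stands last because 1 of its siCtrl signals was under 100 and ranked as 100.

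The largest fall was that of VAV3, a guanine nucleotide exchange factor, and it exceeded that of the target. VAV3 went from 2690 and 2549 to 93.68 and 99.79, at least 26.2-fold. AKR1C1, an aldo-keto reductase that reduces steroids and carbonyls, went from 3083 and 3449 to 210.3 and 208.1, 15.6-fold, and its close relative AKR1C2 from 2116 and 2273 to 182.0 and 187.4, 11.9-fold. The probes of these paralogs can share transcripts, so the values of AKR1C1 and AKR1C2 are not separate evidence. NTS, the neuropeptide neurotensin, fell at least 13.2-fold, DEPTOR, an inhibitor of the kinase mTOR, at least 11.3-fold, and ABCG2, an efflux pump for drugs, at least 8.84-fold. DSC2, a desmosomal cadherin, went from 6807 and 6605 to 596.2 and 598.0, 11.2-fold. RGCC, a regulator of the cell cycle, went from 12340 and 12310 to 1258 and 1250, 9.83-fold. The other falls were VEPH1 (9.43-fold), TSPAN8 (9.23-fold), a tetraspanin, TENT5B (at least 8.44-fold), VIM (7.84-fold), the intermediate filament protein vimentin, GAS1RR (at least 7.39-fold), RAB1B (7.24-fold), a GTPase of transport from the endoplasmic reticulum to the Golgi, and RHOU (at least 7.2-fold).

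Interferon-stimulated genes rose as a group. Of 47 listed, 34 were measured, of which 26 rose and none fell, 76.5% against the 7.18% of all genes, with a median log2 difference of 1.57 against −0.05. Since dim genes enter the measured set when they brighten, the 22 members with a siCtrl mean of 500 or more are given too, and 15 of them rose with a median of 1.20. ISG15, a ubiquitin-like protein, went from 722.1 and 752.3 to 8517 and 8496. IFI6, a mitochondrial antiviral protein, went from 1312 and 1562 to 16250 and 15770. IFIT1, which binds viral RNA with an unmethylated cap, went from 447.0 and 584.6 to 5365 and 5462. In each of these genes both siIGF2R arrays were far above both siCtrl arrays.

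Further members with the same direction were IFI44L, from 217.7 and 245.1 to 2784 and 2695, and IFI27, from 97.26 and 30.79 to 795.8 and 868.2, at least 8.31-fold. OAS1 (log2 difference 1.96) and OAS3 (2.14), which make the activator of RNase L, EIF2AK2 (1.61, in 1 of 2 probe sets), the kinase PKR, TRIM14 (3.24), DDX60 (2.22) and IRF9 (1.79), the DNA-binding subunit of the factor that answers type I interferon, also rose and were chosen after their values were seen. IRF9 signals were 1351 and 1207 with siCtrl and 4369 and 4489 with siIGF2R. One member lay below 0, IFI35, with a log2 difference of −0.93, and IFITM2 (0.12) and IFITM3 (0.15) were near 0. Some members stayed under the filter on all arrays. MX1, an antiviral GTPase, had 47.4 and 64.8 with siCtrl and 312 and 331 with siIGF2R, RSAD2 did not exceed 47.3, and ISG20 had 404 and 406 with siCtrl and 207 and 203 with siIGF2R.

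**Figure D3:**
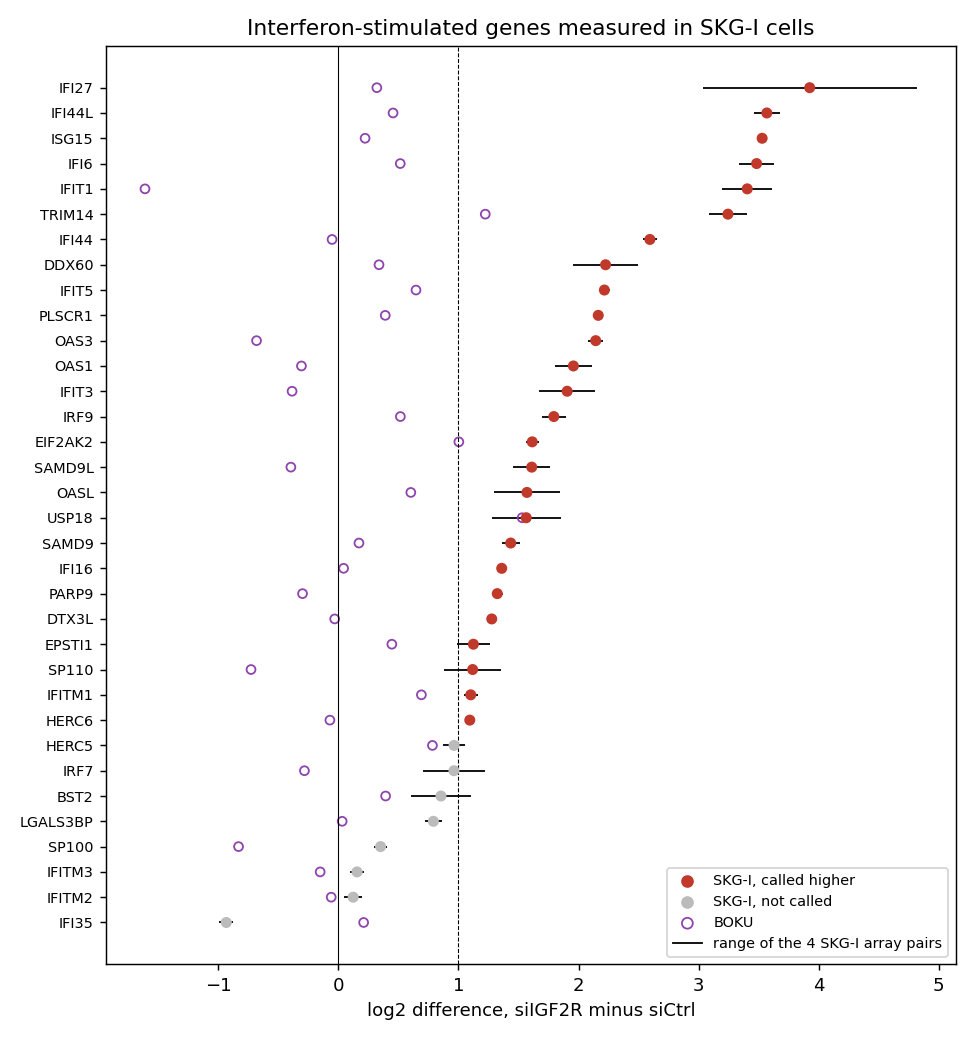
Log2 difference between siIGF2R and siCtrl (x axis) for the 34 interferon-stimulated genes measured, with filled points for SKG-I (red where called, grey where not), black lines for the range of the 4 SKG-I array pairs and open circles for BOKU. In SKG-I 26 of the 34 lie right of the dashed 2-fold line, and the BOKU median of the same genes is 0.19.

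Many, though not all, of the promoters of these genes carry a known response element, which is shown here. The core of the interferon-stimulated response element was searched as GAAANNGAAA on both strands in the 250 bases before each RefSeq gene start (GRCh38.p14). Among the 30 measured members with a promoter entry, 20 (66.7%) held it in at least 1 window, and among the 24 of these that rose, 16 did (66.7%). It was present in 3.71% of all 27305 genes with an entry and in 3.34% of the measured ones. Genes are known as interferon-stimulated partly through this element, so the shares describe the list and are no result of these arrays. A stretch of 80 bases is given for 5 members with large rises, 5′ to 3′ on the strand of the gene, with the matches in capitals, some of which read on the opposite strand as TTTC repeats. The stretches lie at chr1:1013352-1013431 (plus strand) for ISG15, chr1:27672273-27672352 (minus strand) for IFI6, chr1:78620340-78620419 (plus strand) for IFI44L, chr10:89392478-89392557 (plus strand) for IFIT1 and chr14:94110599-94110678 (plus strand) for IFI27.
ISG15: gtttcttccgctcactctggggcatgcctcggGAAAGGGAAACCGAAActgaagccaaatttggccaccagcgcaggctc
IFI6: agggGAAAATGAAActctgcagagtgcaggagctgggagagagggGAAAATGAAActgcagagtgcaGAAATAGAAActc
IFI44L: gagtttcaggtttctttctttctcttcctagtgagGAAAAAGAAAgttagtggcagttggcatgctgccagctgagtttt
IFIT1: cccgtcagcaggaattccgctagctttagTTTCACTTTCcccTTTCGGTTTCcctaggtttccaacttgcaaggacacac
IFI27: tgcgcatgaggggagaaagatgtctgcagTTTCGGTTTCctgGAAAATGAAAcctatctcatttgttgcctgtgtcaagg
The ISG15 run holds 2 overlapping matches, the IFI6 stretch holds 3, and those of IFIT1 and IFI27 hold 2 each. OAS1, IRF9 and RIGI rose with no match to these letters in their windows.

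In the lists of sensors and receptors of the interferon system and of peptide presentation on MHC class I, the called genes rose. In the list of RNA and DNA sensors, interferons and their receptors 4 of 14 measured rose and none fell. That was 28.6%, against 7.18% of all genes, with a median of 0.62. Among the 10 with a siCtrl mean of 500 or more 2 rose and the median was 0.29, since RIGI and STING1 reached 500 on the siIGF2R arrays alone. RIGI, the cytosolic sensor of viral RNA, went from 159.2 and 116.8 to 1239 and 1176, 8.85-fold, in 2 of 2 probe sets. IL10RB, a receptor subunit shared by IL-10 and type III interferons, went from 792.6 and 804.7 to 4857 and 4847, 6.08-fold, and STING1, the adaptor of DNA sensing, rose 3.2-fold. MAVS, the adaptor of RIGI, was called with a log2 difference of 1.01 but in 1 of 3 probe sets, and it was at 0.94 without siCtrl array 2 and at 0.78 without siIGF2R array 2. The interferon genes themselves stayed dim. IFNB1 had 1.86 and 2.28 with siCtrl and 2.51 and 3.55 with siIGF2R, and IFNA1, IFNL1 and IFNL2 did not exceed 58.2 on any array.

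Of 13 measured MHC class I genes 7 rose (53.8%) and none fell, with a median of 1.13, and of the 10 with a siCtrl mean of 500 or more 4 rose, with a median of 0.94. PSMB8, a catalytic subunit of the immunoproteasome, went from 388.8 and 411.4 to 1800 and 1649, 4.31-fold. TAP1 and TAP2, which carry peptides into the endoplasmic reticulum, rose 2.72-fold and 2.85-fold, and NLRC5, a transactivator of these genes, 3.26-fold. HLA-E (log2 difference 1.30), HLA-B (1.13) and HLA-F (1.13) rose too, but the HLA class I genes are so alike that their probe sets can share transcripts. B2M, the shared light chain, differed by 0.05. A list of guanylate binding proteins and other interferon gamma targets was made after values were seen, with 3 of 14 genes measured. In it GBP3 rose from 2270 and 2528 to 6492 and 7190, beside GBP1. Under the filter, GBP2 went from 113 and 161 to 44.5 and 69.2, and GBP4 and GBP5 did not exceed 31.5. The list median lay between −0.18 and 1.59 over the processing settings.

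Genes of the actin cytoskeleton and other targets of SRF, the serum response factor, were also found among the rises. The list, made after TAGLN and ACTG2 had been seen, is a description only. Of 26 measured members 13 rose (50%) and none fell, with a median of 0.98, and of 19 with a siCtrl mean of 500 or more 6 rose. MYL9, a myosin light chain of contractile filaments, went from 988.9 and 957.2 to 8578 and 7306, 8.14-fold. ZYX, zyxin of focal adhesions, rose 6.27-fold, and the tropomyosins TPM1, TPM2 and TPM4 rose 3.88-fold, 2.94-fold and 3.15-fold. SRF itself went from 180.0 and 241.8 to 1021 and 1012, 4.87-fold. Other members were not called. ACTB had a log2 difference of 0.07, ACTA2, aortic smooth muscle actin, of −0.33, and the SRF cofactors MRTFA and MRTFB of −0.47 and −0.33.

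The CArG box, the site that SRF binds, was searched by its usual consensus on both strands in the same 250 bases. It was held by 7 of the 23 measured members with an entry (30.4%) and 5 of the 11 of these that rose (45.5%), and by 1.44% of all genes with an entry. The list holds known SRF targets, so the site belongs to how such genes are defined and nothing is read from these shares. Stretches of 80 bases are given for 4 genes that rose, with the box in capitals, at chr2:73892881-73892960 (ACTG2), chr16:31473119-31473198 (TGFB1I1), chr6:43171189-43171268 (SRF) and chr5:138465350-138465429 (EGR1, an immediate early gene), all on the plus strand.
ACTG2: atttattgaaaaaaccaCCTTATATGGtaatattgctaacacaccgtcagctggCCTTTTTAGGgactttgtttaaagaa
TGFB1I1: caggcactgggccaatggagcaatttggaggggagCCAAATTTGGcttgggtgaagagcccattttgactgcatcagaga
SRF: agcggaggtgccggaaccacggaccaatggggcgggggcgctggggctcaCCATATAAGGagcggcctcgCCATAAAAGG
EGR1: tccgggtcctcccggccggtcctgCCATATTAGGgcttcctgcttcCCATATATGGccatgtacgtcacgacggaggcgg
The boxes of SRF, ACTG2 and EGR1 come in pairs within these stretches. MICAL2, ZYX, TPM1 and CCN2 rose without a match in their windows.

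Among measured genes that damp or report growth factor signaling, all calls were rises. The ERK feedback list, phosphatases and Sprouty proteins that ERK signaling induces, had 9 measured members of 14. Of these 7 rose (77.8%, against 7.18% of all genes) and none fell, with a median of 1.25. DUSP5, DUSP6 and ETV5 passed the filter through the siIGF2R arrays alone, and of the 6 members with a siCtrl mean of 500 or more 4 rose, with a median of 1.15. DUSP4 went from 1192 and 1165 to 4344 and 4504, 3.75-fold, in 3 of 3 probe sets, and DUSP6, the cytosolic ERK phosphatase, from 120.3 and 70.0 to 659.4 and 565.6, at least 5.57-fold. ETV5, a transcription factor downstream of ERK, rose 4.08-fold. SPRED1 (log2 difference 1.18), SPRY2 (1.12) and DUSP1 (1.25) were the other called members, and PHLDA1 (0.86) and SPRED2 (0.89) lay under the threshold.

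Of 17 measured immediate early genes, which respond first to growth factors and stress, 7 rose and none fell. That was 41.2%, against 7.18% of all genes, with a median of 0.60. Of the 13 with a siCtrl mean of 500 or more 3 rose, with a median of 0.33. CCN2, a secreted matrix protein also known as CTGF, went from 1393 and 1109 to 12590 and 11960, 9.87-fold. The nuclear receptors NR4A3 and NR4A1 rose 6.67-fold and 4.06-fold, and EGR1 went from 293.3 and 341.3 to 1365 and 1516, 4.55-fold. JUN rose 4.01-fold and MYC 2.94-fold, whereas JUNB (log2 difference −0.12), JUND (−0.28) and IER2 (0.17) were not called. FOS stayed under the filter, with 178 and 191 on the siCtrl arrays and 439 and 445 on the siIGF2R arrays. Of 5 measured members of the EGFR family and its ligands HBEGF rose, with a log2 difference of 1.16. Among 8 genes of the IGF axis IRS2, an adaptor of the insulin and IGF-1 receptors, was the one called, from 1773 and 1787 to 4600 and 4551.

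Cell adhesion genes moved in both directions. Among 14 measured desmosomal and epithelial adhesion genes DSC2, CLDN7 and JUP fell and CDH1 and CDH3 rose. CDH1 and CDH3 passed the filter through the siIGF2R arrays alone. Among the 12 members with a siCtrl mean of 500 or more 3 fell and none rose. CLDN7, a tight junction claudin, went from 602.4 and 620.1 to 181.9 and 168.4, 3.49-fold lower, and JUP, plakoglobin, had a log2 difference of −1.07. CDH1, E-cadherin, was dim with siCtrl, at 143.4 and 173.3, and rose to 619.1 and 652.2, and CDH3, P-cadherin, went from 200.1 and 142.2 to 1646 and 1189, 8.29-fold. In the keratin list KRT80 rose (log2 difference 1.62) and KRT19 fell, from 7024 and 7222 to 1968 and 1939, 3.65-fold. Of 5 measured mesenchymal genes CDH2, N-cadherin (2.54-fold), FN1, fibronectin (2.24-fold, in 3 of 4 probe sets), and ZEB1 (log2 difference 1.02) rose. VIM fell, so mesenchymal markers were found on both sides. ZEB1 was at 0.996 without siCtrl array 2 and at 0.992 without siIGF2R array 1, just under the threshold. ITGA2, a collagen-binding integrin subunit, went from 550.5 and 557.3 to 5102 and 4806, 8.94-fold, and ITGB4 rose by 1.36 on the log2 scale, the called members of 9 integrins.

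PLAUR, the urokinase receptor, was the member called among 16 genes of the extracellular matrix and its proteases. It went from 1494 and 1515 to 10700 and 10790, 7.14-fold, in 2 of 3 probe sets. In the TGF-beta list 5 of 18 rose and 1 fell, with a median of 0.08. TGFBR1, the type I receptor (log2 difference 1.65), the latency proteins LTBP1 (1.58) and LTBP2 (1.16), PMEPA1 (1.06) and TGFB2 (1.27, in 2 of 3 probe sets) rose. ID2, an inhibitor of helix-loop-helix factors, went from 3167 and 3187 to 766.7 and 792.8. Of 9 Notch and lineage genes KLF5 rose (1.01, but 0.91 without siCtrl array 2) and HEY1, a Notch target, fell (−1.54).

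Several genes of drug and carbonyl metabolism were among the falls. Their list was made after AKR1C1 and ABCG2 had been seen to fall and is a description only, with 6 of 15 measured members lower, none higher and a median of −0.87. EPHX1, microsomal epoxide hydrolase, went from 2265 and 2866 to 410.8 and 350.6, 6.71-fold. ALDH3A1, an aldehyde dehydrogenase, fell 4.24-fold, and AKR1B10, another aldo-keto reductase, went from 633.9 and 661.0 to 103.0 and 123.7. The NRF2 and oxidative stress list, which shares AKR1C1, AKR1C2 and AKR1B10 with it, had 4 of 25 members that fell (16.0%) and none that rose, with a median of −0.47, and SRXN1, sulfiredoxin, was its other called gene (−1.13). The classical NRF2 targets NQO1 (−0.56), HMOX1 (−0.83) and GCLM (−0.01), and NFE2L2 itself (−0.08), were not called.

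The aryl hydrocarbon receptor, a ligand-activated factor that induces cytochromes, fell with its partner and a target. Of 5 measured members of its list 3 fell and 1 rose, and 2 lay above 0. Of all genes 6.26% were called lower and 7.18% higher. AHR went from 2490 and 2158 to 677.1 and 642.7, 3.51-fold. ARNT, its dimerization partner, went from 1278 and 1396 to 335.4 and 431.6, and CYP1B1 from 12130 and 10560 to 2140 and 2145, 5.28-fold, in 4 of 4 probe sets. AHRR, a repressor of the receptor, was called higher (log2 difference 1.03), though the difference was 0.845 without siCtrl array 1 and 0.995 without siIGF2R array 2.

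Vesicle transport genes were called in both directions, and their counts are to be read beside the 7.18% of all genes called higher and the 6.26% called lower. Of 11 measured subunits of the COG and GARP complexes, which tether vesicles at the Golgi, 3 fell (27.3%) and none rose. Their median was −0.77, with 10 of 11 below 0. The median was −0.05 over all genes and −0.09 over those with a mean siCtrl signal of 500 or more, and their shares below 0 are not given. COG5 went from 1994 and 2014 to 663.0 and 587.4, 3.21-fold, and VPS54 from 2079 and 2301 to 837.1 and 777.0, 2.71-fold, in 3 of 3 probe sets. In the COPI and ARF list 3 of 14 fell. COPG2 had a log2 difference of −1.13, but of −0.95 without siCtrl array 2. ARF3 (−1.30) was called in 1 of 3 probe sets and was at −0.82 as the mean of its probe sets. ARCN1, the delta subunit of the COPI coat, went from 5456 and 5443 to 1232 and 1384, 4.17-fold. AP2B1, of the AP-2 adaptor of endocytosis, was the called member of 14, from 2048 and 1900 to 383.9 and 433.7, 4.83-fold. DYNC1I2, DYNLT3 and KIF3B, subunits of dynein and kinesin motors, fell (log2 differences −1.91, −1.42 and −1.17), 3 of 21 measured.

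Some transport genes rose. SNAP25, a SNARE of regulated exocytosis, went from 676.6 and 656.5 to 4006 and 4091, 6.07-fold, in 3 of 3 probe sets, and STX2, a syntaxin, rose by 1.56 on the log2 scale. Of 34 Golgi SNAREs, golgins and cargo receptors 4 rose, BCAP29 (1.86, in 2 of 3 probe sets), SCAMP1 (1.78), GOLGA4 (1.24) and NAPG (1.07). RER1 (−1.70) and SEC22B (−1.09) fell. SNX27, a sorting nexin (1.28), was the call among 12 retromer genes, and SAR1B (1.34, in 2 of 3 probe sets) that among 13 COPII genes. Of 25 RAB GTPases RAB8B rose (1.15) and RAB1B fell. Of 20 Golgi glycosylation genes MGAT4A rose (2.68), and MGAT5 (−2.06) and CMAS (−1.95), which activates sialic acid, fell.

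Lipid, stress and energy genes were called in both directions, beside 13.4% of all genes called either way. In the cholesterol and fatty acid list INSIG1, which holds the sterol sensor in the endoplasmic reticulum, went from 6400 and 6074 to 1545 and 1572, 4.0-fold lower, in 3 of 3 probe sets. HMGCS1 (log2 difference −1.57) and SREBF1 (−1.40) also fell and STARD4 rose (1.65), 4 called of 19. Of 21 ER chaperones and unfolded protein response genes DNAJB11 (−1.76), DNAJC3 (−1.26) and ATF6 (−1.10, but −0.98 without siCtrl array 2) fell and none rose. DNAJC3 was called in 1 of 2 probe sets and ATF6 in 1 of 3. Among 22 glycolysis and hypoxia genes ENO2 went from 171.3 and 158.0 to 1394 and 1382, 8.44-fold, and HK1, a hexokinase, rose (1.27). SLC2A1 (−1.22), EGLN3 (−1.13, but −0.995 without siIGF2R array 2) and PKM (−1.05) fell. PKM was called in 1 of 2 probe sets and was at −0.94 without siCtrl array 2. The amino acid response had 3 of 18 higher, CHAC1 (1.57), VLDLR (1.41) and MTHFD2 (1.11), and PSAT1 lower (−1.26). CREM and ATF3, of the CREB and ATF family, rose by 2.35 and 1.41 on the log2 scale, and ATF7 of the same family fell (−1.12). CREM was called in 4 of 5 probe sets.

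The large housekeeping complexes had few calls. None of 45 oxidative phosphorylation genes and none of 27 proteasome genes was called, with medians of −0.28 each and 42 of 45 and 25 of 27 below 0. The median was −0.05 over all genes and −0.09 over those with a mean siCtrl signal of 500 or more. The share of all genes below 0 is not given. Under other processing the list medians ranged from −0.325 to −0.187 and from −0.315 to −0.156. Of 35 cytosolic ribosomal protein genes RPS12 (−1.08) and RPS24 (−1.94) were called lower, with a list median of −0.20. The probe sets of RPS24 disagreed, since 1 fell from 19570 and 20810 to 5251 and 5235 and the other rose from 655.2 and 637.0 to 1472 and 1376. HSP90AA1 rose (1.11, in 3 of 4 probe sets), and without siCtrl array 1 the difference was 0.90.

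Mitotic genes had a single call. Of 21 measured, NUSAP1 was called lower (log2 difference −1.04, in 1 of 2 probe sets, but −0.96 without siIGF2R array 1) and none higher, the median was −0.06, and CDK1 (0.17), TOP2A (0.23) and CCNB1 (−0.48) were not called. In the DNA replication list 3 of 24 fell, MCM5 (−1.42), GINS2 (−1.24) and CDC6 (−1.07). Its median was −0.31, with 19 of 24 below 0, beside a median of −0.05 over all genes. The share of all genes below 0 is not given, and of the oxidative phosphorylation genes 42 of 45 lay below 0. Of 17 p53 targets GDF15 and SESN1 rose (1.30 and 1.26), while CDKN1A (−0.62) and MDM2 (0.03) were not called. Among 22 apoptosis regulators BID (1.34), BIRC2 (1.15) and BCL2L1 (1.02) rose, the last of which was at 0.93 without siCtrl array 1 and at 0.88 without siIGF2R array 2, and CASP1, the inflammasome protease, fell (−1.42) in 4 of 4 probe sets. The inflammatory list had 7 of 26 members measured. IL11, ICAM1 (2.06) and TNFAIP3 (1.13) rose, and PTGS2, cyclooxygenase 2, went from 4021 and 4040 to 1262 and 1242. Complement C3 was lower, from 672.4 and 691.7 to 120.0 and 102.3, 6.15-fold. Of 10 genes of microRNA machinery AGO4 rose (1.48) and AGO1 fell (−1.01, in 1 of 2 probe sets, but −0.93 without siIGF2R array 1).

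**Figure D4:**
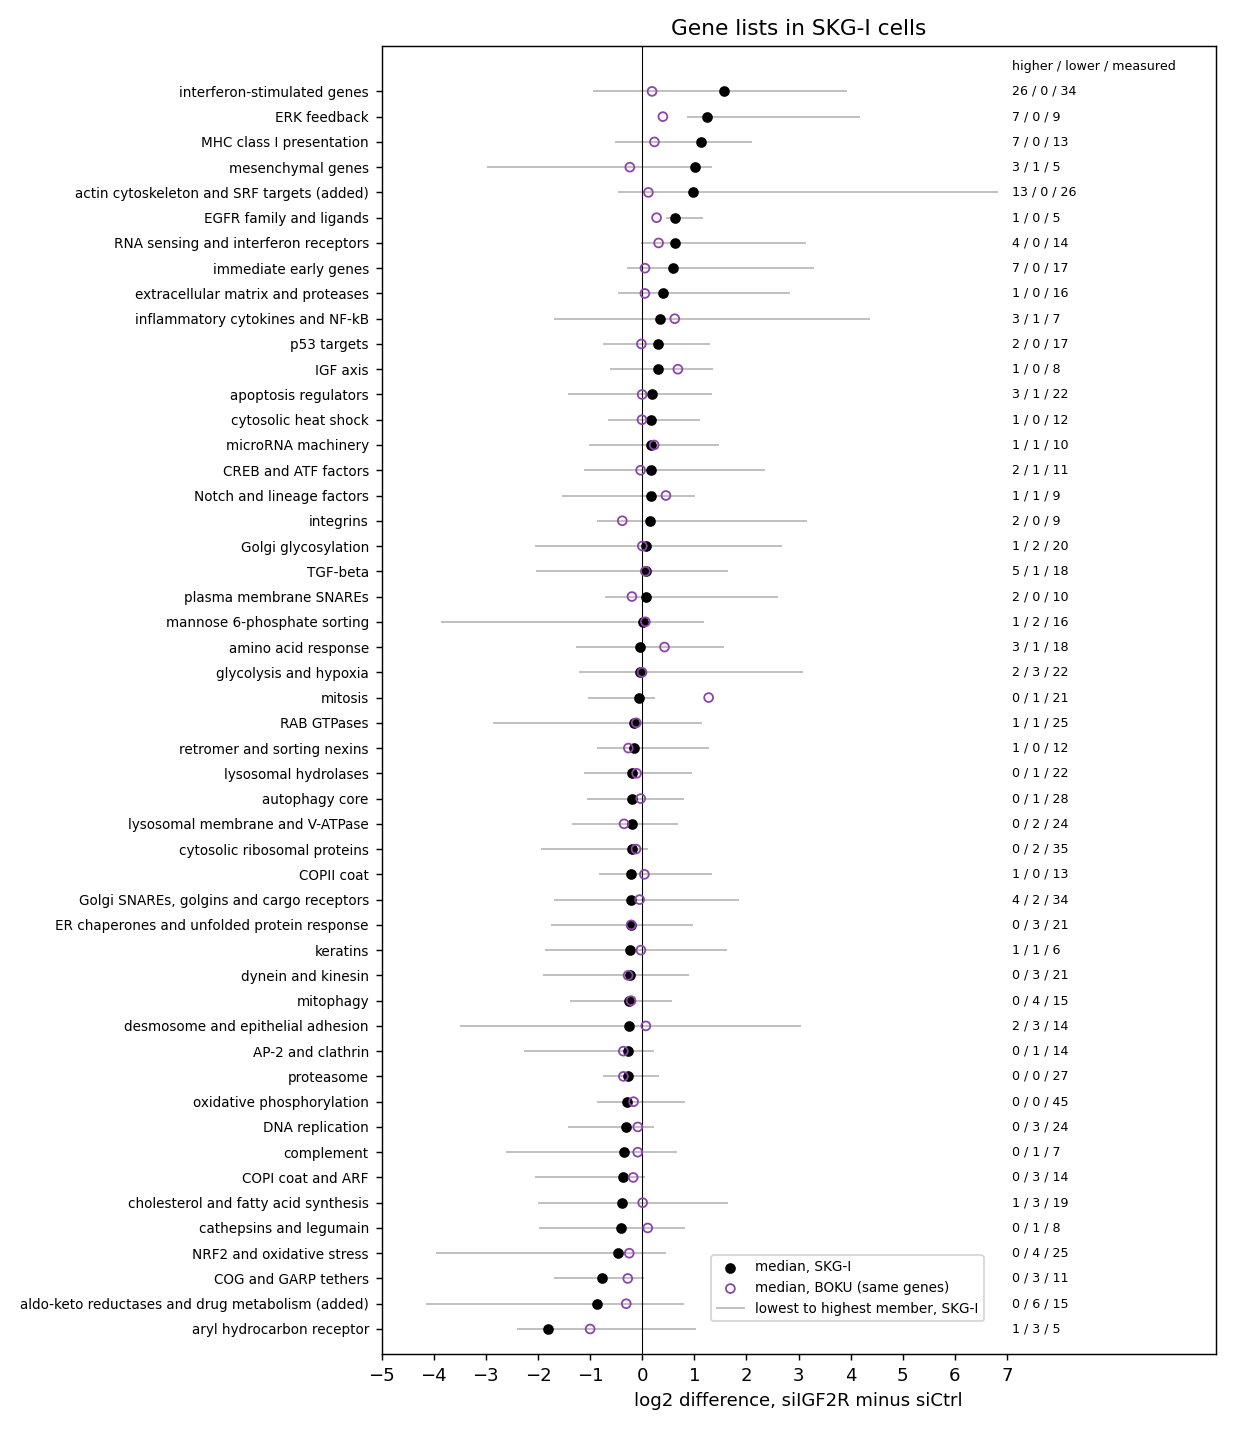
Median log2 difference of each gene list with at least 5 measured members in SKG-I (black) and of the same genes in BOKU (open circles), with grey lines from the lowest to the highest member in SKG-I and, at the right, the numbers called higher, called lower and measured. The interferon-stimulated genes have the highest SKG-I median, 1.57, and the aryl hydrocarbon receptor list the lowest, −1.81, and lists made after values were seen are marked as added.

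BOKU cells had received a control siRNA or an siRNA against IGF2R in the same way, and their values for the genes measured in SKG-I are given for comparison. IGF2R went from 7288 and 6710 to 641.1 and 644.9 in BOKU, a log2 difference of −3.44 beside −3.85 in SKG-I. By the same rule 589 of the 8078 genes rose in BOKU (7.29%) and 349 fell (4.32%). Of the 580 genes that rose in SKG-I, 231 rose in BOKU too, 39.8% of the SKG-I rises and 39.2% of the BOKU rises. Of the 506 that fell, 182 fell in BOKU, 36.0% of the SKG-I falls and 52.1% of the BOKU falls. Over all genes the changes in the lines had a correlation of 0.55, a description across genes, which are not independent. With 1 RNA sample for each line and siRNA, the difference between the lines leaves no residual degrees of freedom and was not tested, and 272 of the genes called in SKG-I were under 500 on all BOKU arrays.

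Several transport genes, picked out after their values were seen, were called in the same direction in both lines. In SKG-I and BOKU the log2 differences were −2.06 and −1.67 for ARCN1, −2.27 and −1.88 for AP2B1, −1.91 and −2.11 for DYNC1I2, −2.85 and −4.20 for RAB1B, and 2.60 and 2.91 for SNAP25. The interferon-stimulated genes had a median of 1.57 in SKG-I and of 0.19 in BOKU, where 3 of the 34 rose and 1 fell. ISG15 stood at 2299 and 2018 with siCtrl and at 2569 and 2457 with siIGF2R in BOKU. In the sensor and receptor list 3 of 14 rose in BOKU, and in the MHC class I list 3 of 13. Among the members named above, IL10RB (log2 difference 2.58), MAVS (1.365), TAP2 (1.43), TAP1 (1.06) and NLRC5 (1.0) were called higher there. RIGI (0.06), STING1 (0.37) and PSMB8 (0.95) were not. For the actin list the medians were 0.98 and 0.12, for ERK feedback 1.25 and 0.40 and for the aldo-keto reductase list −0.87 and −0.31. AKR1C1 was dim in BOKU, at 277.1 and 447.7 with siCtrl and 147.8 and 237.7 with siIGF2R. The mitosis list had medians of −0.06 in SKG-I and 1.28 in BOKU, where 14 of the 21 rose.

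**Figure D5:**
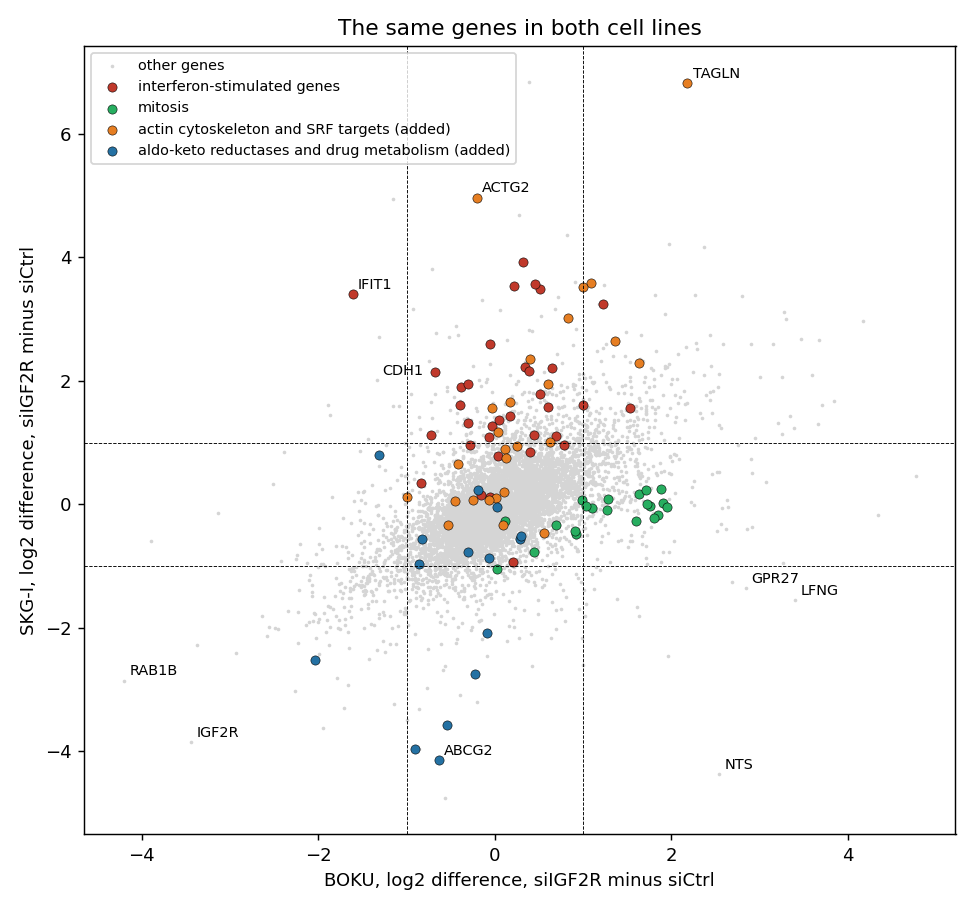
Log2 difference between siIGF2R and siCtrl in SKG-I (y axis) against BOKU (x axis) for the 8078 genes measured in SKG-I, with 4 gene lists in colour and dashed lines at 2-fold. Interferon-stimulated genes (red) lie high on the y axis and around 0.19 on the x axis, and mitosis genes (green) lie around −0.06 and 1.28.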

How the data were processed

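Total RNA of SKG-I and BOKU cells was measured on arrays of 54675 probe sets. The authors deposited an intensity for each probe set and array, on a linear scale, made with MAS5 and, per the labels, GeneChip Analysis Suite 4.0. The trimmed mean was 500.1 on each SKG-I array, whereas the methods name another target, so a common scaling is assumed. Such scaling sets a common level and would hide a shift of all transcripts. Depth has no meaning for arrays, and their number limits the precision.

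From these signals log2 values were taken and duplicates averaged. After removal of 62 controls, a probe set was kept if its signal reached 500 on any SKG-I array, 12803 with 1 gene, 706 with several and 1041 with none named. Symbols come from the platform annotation, updated through RefSeq (GRCh38.p14), and a gene is represented by its kept probe set with the highest mean log2 signal. A call needs a 2-fold difference and both siIGF2R arrays on the same side of both siCtrl arrays. Where a group mean was under 100, the fold is a bound, with each array's signal under 100 set to 100. Scripts (Python 3.11.15, numpy 2.4.6, pandas 2.3.3, scipy 1.17.1, matplotlib 3.10.9) were tested on simulated data. With 1 RNA sample per group no p-value is given.

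Named are IGF2R, the 15 largest rises and 15 largest falls among genes 2-fold apart in all 4 array pairs, up to 4 called members per direction of each list, up to 2 main factors of a list, and the 10 genes most opposite in BOKU. The members and lists were chosen with earlier results of these data known, and 3 lists were added after values were seen. Alternatives were the normalization, the filter, low signals, the mean of duplicates, a signal-dependent shift, the choice of probe sets, the call rule and leaving out each array.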

Additional observations from a re-analysis of the deposited data

Results flagged for a closer look

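The array maker's human control probe sets were left out of all comparisons, and 4 of them were more than 2-fold higher with siIGF2R. Their signals went from 2465 and 2454 to 5544 and 5439, from 420.0 and 342.8 to 964.9 and 837.6, from 833.8 and 800.0 to 1847 and 1723, and from 684.9 and 552.3 to 1480 and 1235. In the same order their log2 differences were 1.16, 1.24, 1.13 and 1.14.

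Of the genes called in SKG-I, 7 that rose were called lower in BOKU and 15 that fell were called higher there, and the differences between the lines were not tested. The 11 given here are those with the largest opposite changes and EGLN3, which is named as a list member. The change in SKG-I minus that in BOKU, on the log2 scale, was 5.02 for IFIT1, −6.91 for NTS, −4.95 for LFNG, −4.41 for NRG4, −4.20 for GPR27, −3.94 for OLFML2A, 3.50 for SPHK1, −3.44 for CLDN7, 3.35 for CDH1, 3.33 for CRISPLD1 and −2.23 for EGLN3. Of these genes 8 were under 500 on all BOKU arrays, where both groups were dim. The other 3 were brighter. In BOKU, IFIT1 went from 1049 and 972.9 to 361.0 and 302.9, OLFML2A from 50.51 and 126.8 to 472.4 and 558.0, and SPHK1, a kinase that makes sphingosine 1-phosphate, from 4918 and 5158 to 1404 and 1322.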

How the results depend on the processing

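No paired analysis was possible because the replicate numbers name duplicate arrays of 1 RNA and the results come from no test. Leaving out each array in turn gave 574 to 596 genes higher, 518 to 526 lower, 220 to 235 higher and 175 to 189 lower in both lines, and an IGF2R log2 difference between −3.95 and −3.75. With no filter 1883 genes were higher and 1745 lower, 508 and 406 of them also in BOKU. A threshold of 1.5-fold gave 1267 and 1376 genes, 636 and 564 also in BOKU, and one of 3-fold gave 217 and 141, with 67 and 47. The IGF2R log2 difference was −3.57 with 64 added to each signal and −3.59 as the mean of its probe sets. Without probe sets of the s and x kind, which can match several transcripts, IGF2R has no value, since both of its probe sets are of that kind, and RPS24 changed sign, to 1.14. Other normalizations kept the counts within 1.5 times of those reported (572 and 522 with quantile normalization, 550 and 543 with median scaling), as did a filter on the mean signal, chosen after seeing the data (458 and 393). The interferon-stimulated genes had a median between 1.37 and 1.61 in these settings. Duplicate arrays of 1 RNA show technical spread alone, so variation between cultures is unknown.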
